A study of Rattus norvegicus with 12 samples.

Results

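Thyroid hormone signalling was represented by 9 genes, chosen by name as the nuclear receptors (Thra, Thrb), their retinoid X receptor partners (Rxra, Rxrb, Rxrg), the deiodinases (Dio2, Dio3) and the hormone-responsive regulators Hr and Klf9. Each of the 9 genes had 1 probe with 1 spot among 30367 probes under 26214 gene names, and all 9 passed the filter on low signal that left 23796 probes for testing. The genes were chosen by name, by a rule that uses no measured value but was set with earlier results of these data known. The samples were neuron-enriched cultures of the cerebellum of 1-day-old Sprague-Dawley rats at 16 days in vitro, with 6 control arrays and 6 arrays of cultures exposed to acetamiprid (ACE), a neonicotinoid insecticide that acts on nicotinic acetylcholine receptors. Control cultures received the solvent DMSO at 0.001%, and ACE cultures received 1 µM ACE with the same DMSO, in both cases from day 2 with part of the medium renewed every 2 days. Per the study's methods, each of the 6 culture experiments used a lot of cells pooled from the pups of 1 litter, and the control and the ACE culture of a replicate number came from the same lot. All cultures grew in 1% fetal bovine serum until day 8 and then in serum-free medium that held 5 nM thyroxine and 30 nM selenite. Both groups therefore carried the same added hormone, and no culture without thyroxine was analysed here.

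Thyroid hormone enters neural cells through membrane transporters, mainly as thyroxine, a prohormone. The deiodinases are selenium-containing enzymes that decide how much active hormone a cell sees. Dio2 converts thyroxine to the active triiodothyronine and in brain is best known from astrocytes and tanycytes, whereas Dio3 inactivates both hormones and in brain is found largely in neurons. Triiodothyronine binds the receptors encoded by Thra and Thrb, which sit on DNA as heterodimers with a retinoid X receptor and exchange corepressors for coactivators when hormone is bound. In the developing cerebellum the hormone is needed for Purkinje cell dendrites, granule cell migration and myelination. Hr, which encodes the corepressor Hairless, and Klf9, a zinc finger transcription factor, are among the best known direct targets in rat brain.

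The 2 receptor genes were measured with 60-base probes of related sequence. The probes of Thra and Thrb are shown because the result for each receptor rests on 1 such probe. They are written 5′ to 3′, and capitals mark the bases that match in their best ungapped overlap, 25 of 38 aligned bases.
Thra, chr10:87537328-87537387, plus strand: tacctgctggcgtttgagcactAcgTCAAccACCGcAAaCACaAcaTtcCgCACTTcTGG
Thrb, chr15:9282955-9283014, minus strand: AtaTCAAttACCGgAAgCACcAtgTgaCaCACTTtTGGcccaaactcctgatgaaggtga
The longest run of bases shared by the 2 probes at any offset was 5. The array files list more than 1 RefSeq transcript of Thra for its probe, so that the receptor variants of Thra were not separated. The Dio2 probe is shown for its last 3 bases, in capitals, the triplet TGA that deiodinase mRNAs can read as selenocysteine where most mRNAs read a stop. Whether this triplet is in frame, and whether it is read as selenocysteine or as a stop, was not tested.
Dio2, chr6:114308225-114308284, minus strand: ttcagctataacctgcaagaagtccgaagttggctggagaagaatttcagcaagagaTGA
Positions are those that the array files give on the rat build rn4. The other probes lay at chr3:6678240-6678299 (Rxra), chr20:4954595-4954654 (Rxrb), chr13:83298626-83298685 (Rxrg), chr6_random:1589962-1590021 (Dio3), chr15:50972068-50972127 (Hr) and chr1:226445625-226445684 (Klf9). The exon or untranslated region of each probe was not given in the sources used here.

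None of the 9 genes changed between control and ACE cultures by limma or by the exact paired tests described here. With limma (replicate block, two-sided, Benjamini-Hochberg adjustment over 23796 probes) the members called at adjusted p under 0.05 were 0 of 9, beside 0% of all probes. Unadjusted limma p-values of the 9 genes ran from 0.0638 (Klf9) to 0.946 (Dio3), so 0 of 9 were under 0.05, beside 16.6% of all probes (6.9% higher and 9.73% lower in ACE). Of the probes under 0.05, 41.5% were higher in ACE, against 19.1% when arrays were scaled by their 75th percentile and 51.5% with the deposited log2 values. An exact signed-rank test of the 6 paired differences, two-sided, also called 0 of 9, beside 11.6% of all probes (4.72% higher and 6.86% lower in ACE), with 0.03125 as the smallest p that 6 pairs allow. No gene had control and ACE values that did not overlap, which held for 0.0126% of all probes. By sign of the mean difference, 5 genes were higher and 4 lower in ACE. The median absolute difference was 0.072 on the log2 scale for the 9 genes and 0.062 for all tested probes. Levels below are log2 of the array signal after quantile normalisation, so a difference of 1 is a doubling, and levels of different probes are not compared. Since these are bulk RNA samples, fewer cells of a type and less RNA per cell cannot be told apart.

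**Figure D1:**
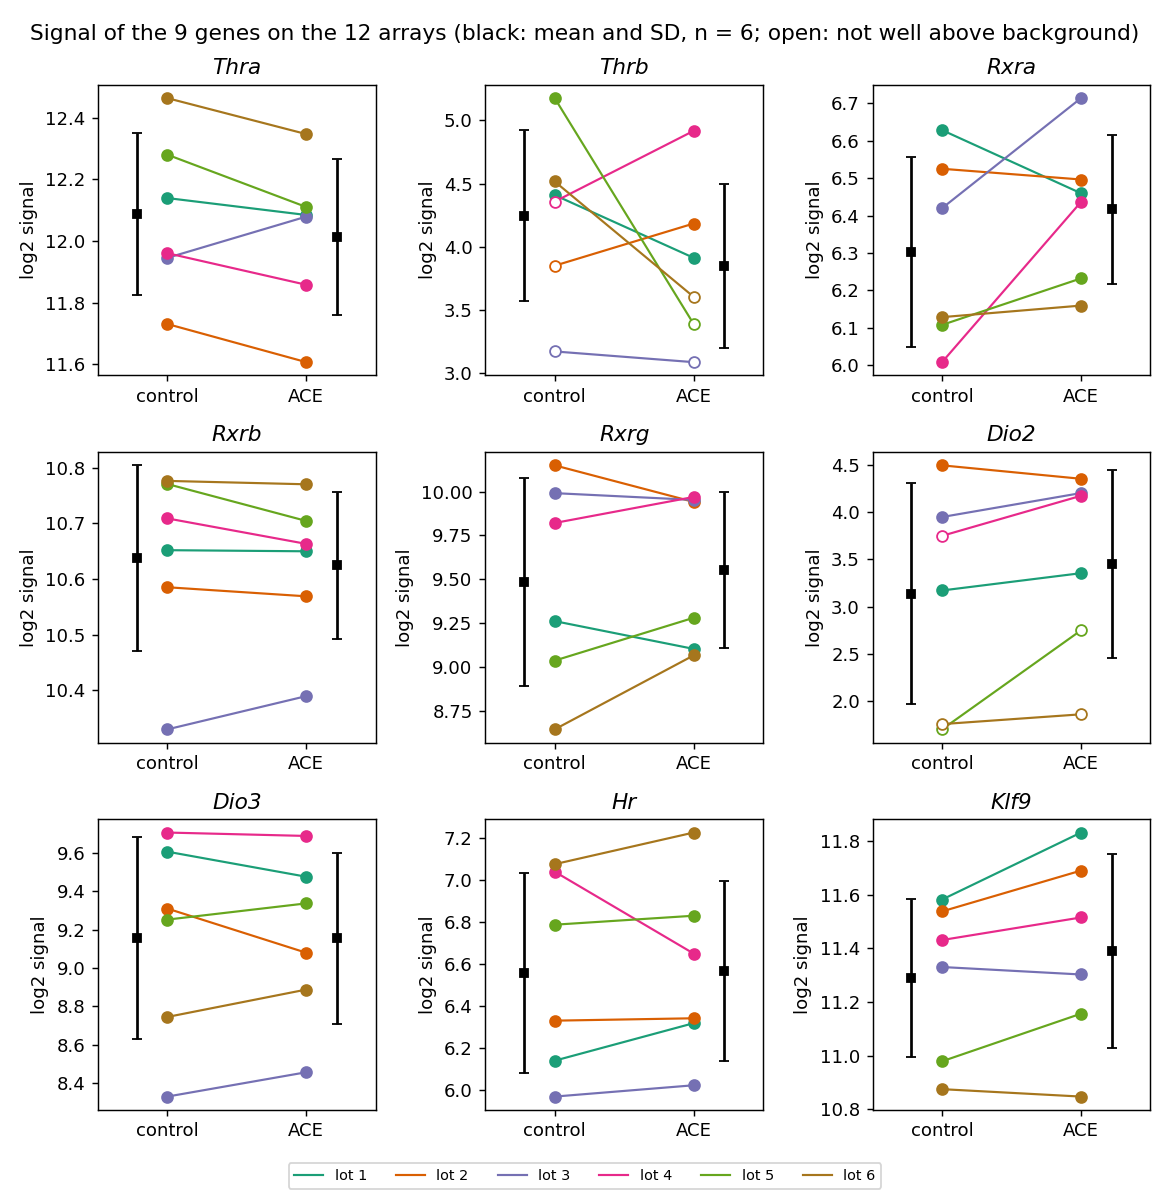
Log2 signal of each gene (y axis, separate scale per panel) in the control and the ACE array of each culture lot, joined by a line. Open symbols were not well above background, black squares and bars give the group mean and SD (n = 6), and in every panel the 2 groups overlap.

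Thra encodes the receptor form that predominates in brain. Its control arrays ran from 11.73 through a median of 12.05 to 12.46, and its ACE arrays from 11.61 through 12.08 to 12.35. The ACE array was the lower one in 5 of the 6 lots, lot 3 being the exception, but the 2 groups overlapped over most of their range. The mean was 12.09 ± 0.26 in control and 12.01 ± 0.25 in ACE arrays (SD, n = 6), a log2 difference of -0.072 ± 0.044 (SE; limma adjusted p = 0.442, exact sign-flip permutation p = 0.1875). The 95% interval of the difference, -0.18 to 0.033, allows a small decrease or almost no difference. Without lot 3 the difference was -0.11 with an unadjusted limma p of 0.00839 (adjusted p = 0.199). Leaving out any other single lot gave unadjusted limma p-values of 0.198 to 0.313. Nr1d1, which lies on the opposite strand at the 3′ end of the Thra locus, was lower in 5 of 6 pairs as well (log2 difference -0.081 ± 0.040, limma adjusted p = 0.361). With scaling by the 75th percentile the Nr1d1 difference was -0.13. Whether the 2 probes share transcript sequence was not tested.

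Thrb, the second receptor gene, was close to the limit of detection. Its probe was well above background on 3 of 6 control and 3 of 6 ACE arrays, and on both arrays of a lot only in lot 1. Control values ran from 3.17 through 4.38 to 5.18 and ACE values from 3.09 through 3.76 to 4.92. The mean difference was -0.40 ± 0.31 (SE, 95% interval -1.15 to 0.35, limma adjusted p = 0.544, exact sign-flip permutation p = 0.3125). The most negative pairs were lot 5 at -1.79 and lot 6 at -0.91, while lots 2 and 4 were higher in ACE, and without lot 5 it was -0.12. With normexp background correction it was -0.077. A difference in Thrb was not detectable with this probe.

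No change was detected in the 3 retinoid X receptor genes, with intervals of very different width. Rxrb, the most even of the 9 genes, lay between 10.33 and 10.78 in the control arrays and between 10.39 and 10.77 in the ACE arrays. Its log2 difference was -0.013 ± 0.026 (limma adjusted p = 0.821, exact sign-flip permutation p = 0.40625), and its 95% interval, -0.075 to 0.049, is the narrowest of the 9. Rxra ran from 6.01 through a median of 6.27 to 6.63 in control and from 6.16 through 6.45 to 6.71 in ACE arrays. The ACE array was the higher one in 4 of 6 lots, most of all in lot 4 (0.43) and lot 3 (0.29), and the mean difference was 0.11 ± 0.081 (95% interval -0.081 to 0.31, limma adjusted p = 0.505, exact sign-flip permutation p = 0.3125). It was 0.035 with scaling by the 75th percentile and 0.059 with normexp background correction.

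Rxrg, which in brain has a more restricted expression than the other two, split by lot. Control values ran from 8.64 through 9.54 to 10.15 and ACE values from 9.06 through 9.61 to 9.97. The ACE array was lower by 0.16, 0.21 and 0.039 in lots 1, 2 and 3 and higher by 0.15, 0.24 and 0.42 in lots 4, 5 and 6, so that the mean difference was 0.068 ± 0.090 (95% interval -0.15 to 0.29, limma adjusted p = 0.724, exact sign-flip permutation p = 0.5625). Lots 4, 5 and 6 were also the arrays scanned together as 1 batch. Fitted in that batch alone, the difference was 0.27 with an unadjusted limma p of 0.0274 (adjusted p = 0.336). The other 3 scan batches held 1 pair each. The difference between batches was not tested. In the same batch Thra was at -0.13 (limma adjusted p = 0.343), Thrb at -0.71, Dio2 at 0.52, Rxra at 0.19, Rxrb at -0.039, Klf9 at 0.078, Hr at -0.065 and Dio3 at 0.070, and no member passed the adjusted threshold.

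Dio2, the activating deiodinase, had the largest positive mean difference of the 9 genes and was, like Thrb, dim. It was well above background on 3 of 6 control and 4 of 6 ACE arrays. The control arrays gave 3.17, 4.49, 3.95, 3.75, 1.70 and 1.76 for lots 1 to 6, and the ACE arrays gave 3.35, 4.35, 4.20, 4.17, 2.75 and 1.86. The ACE array was thus higher in 5 of 6 lots, most of all in lot 5, where neither array was well above background. The mean difference was 0.31 ± 0.15 (SE, 95% interval -0.041 to 0.66, limma adjusted p = 0.346, exact signed-rank and sign-flip permutation p = 0.09375). Over the 3 lots in which both arrays were well above background it averaged 0.098, with 2 higher and 1 lower, and without lot 5 it was 0.16. Rxra and Klf9, with both arrays well above background in all 6 lots, averaged 0.11 and 0.10. The rank of Dio2 thus rests on lots with dim signals. With normexp background correction, which compresses dim signals, the Dio2 difference was 0.12 and reached an unadjusted limma p of 0.00881 (adjusted p = 0.152). Scaling by the 75th percentile gave 0.18.

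Dio3, the inactivating deiodinase, was well above background on all 12 arrays. Its control values ran from 8.33 through 9.28 to 9.70 and its ACE values from 8.46 through 9.21 to 9.69. ACE was higher in 3 lots and lower in 3, with a mean difference of -0.0041 ± 0.058 (95% interval -0.14 to 0.13, limma adjusted p = 0.977, exact sign-flip permutation p = 0.875). The sign of so small a difference turned under several alternatives, given in the closing section.

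Of the 2 hormone-responsive regulators, Hr ran from 5.97 through 6.56 to 7.07 in control and from 6.02 through 6.50 to 7.22 in ACE arrays. It was slightly higher in ACE in 5 lots (by 0.011 to 0.18) and lower by 0.39 in lot 4, and the mean difference was 0.0078 ± 0.076 (95% interval -0.18 to 0.19, limma adjusted p = 0.967, exact sign-flip permutation p = 0.9375). Without lot 4 it was 0.087. With the arrays scaled by their 75th percentile in place of quantile normalisation, the sign turned, to -0.073, under a setting that moved the median of all probes to -0.034.

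Klf9 had the lowest limma p of the 9 genes, while by both exact tests the lowest p was that of Dio2. Control arrays gave 11.58, 11.54, 11.33, 11.43, 10.98 and 10.87 for lots 1 to 6, and ACE arrays gave 11.83, 11.69, 11.30, 11.52, 11.16 and 10.85. The ACE array was higher by 0.084 to 0.25 in lots 1, 2, 4 and 5 and lower by 0.028 in lots 3 and 6. The mean difference was 0.10 ± 0.045 (SE, 95% interval -0.0078 to 0.21, limma adjusted p = 0.326, exact signed-rank p = 0.156, exact sign-flip permutation p = 0.125). Unadjusted limma p-values crossed to 0.0375 without lot 3, 0.0395 without lot 6 and 0.0445 with the deposited log2 values, and adjusted p stayed at or above 0.263 in all of these. Without lot 1, 2, 4 or 5 the unadjusted limma p was 0.103 to 0.159, and in the largest scan batch it was 0.257. It was 0.0628 with normexp background correction and 0.0640 with scaling by the 75th percentile.

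**Figure D2:**
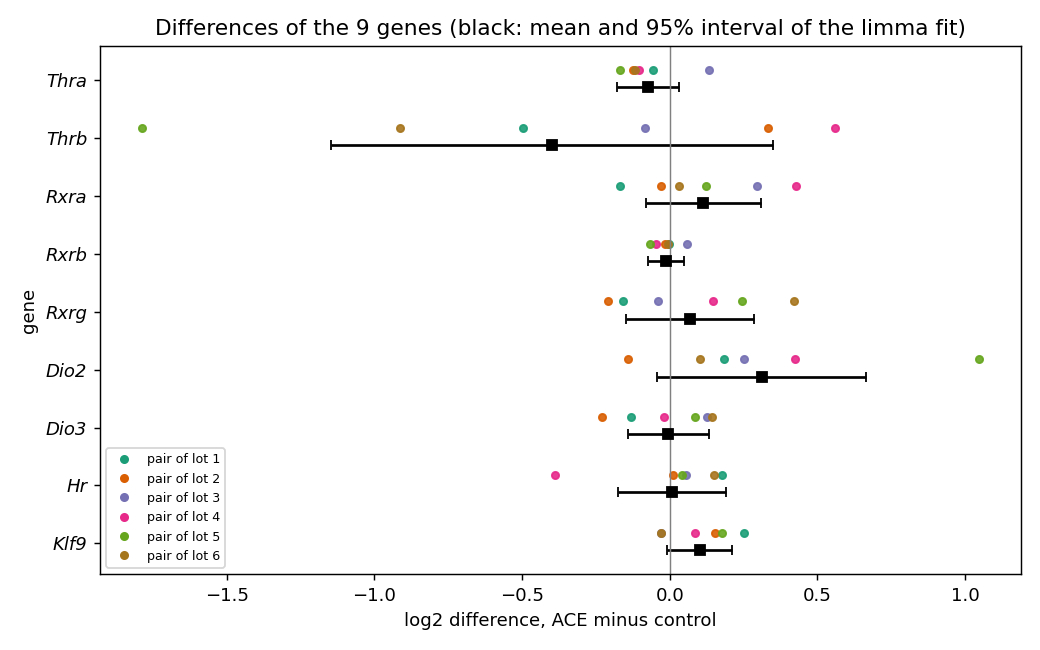
Log2 difference of ACE minus control (x axis) for each of the 9 genes, with coloured points for the 6 lots and black squares with bars for the mean and 95% interval of the limma fit. All 9 intervals include 0, from the narrow one of Rxrb (-0.075 to 0.049) to the wide one of Thrb (-1.15 to 0.35).

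Most of the spread of all 9 genes lay between the 6 culture lots rather than between the 2 exposures. The lot, with 5 degrees of freedom against 1 for exposure, accounted for 93.4% of the sum of squares of Thra over the 12 arrays, 97.7% of Rxrb, 94.1% of Rxrg, 94.2% of Dio2, 97.6% of Dio3, 94.8% of Hr and 94.4% of Klf9, against a median of 92.0% over all tested probes. The share was lower for Rxra, at 71.8%, and for the poorly detected Thrb, at 51.7%. For these 2 genes the SD of the lot means was 1.77 times (Rxra) and 1.26 times (Thrb) the size of the mean difference. In Thrb 38.5% lay in the rest, and a gene without any lot effect also has a lot share above 0. Exposure accounted for at most 9.75% (Thrb) and at least 0.00211% (Dio3), with a median of 1.42% over all tested probes.

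**Figure D3:**
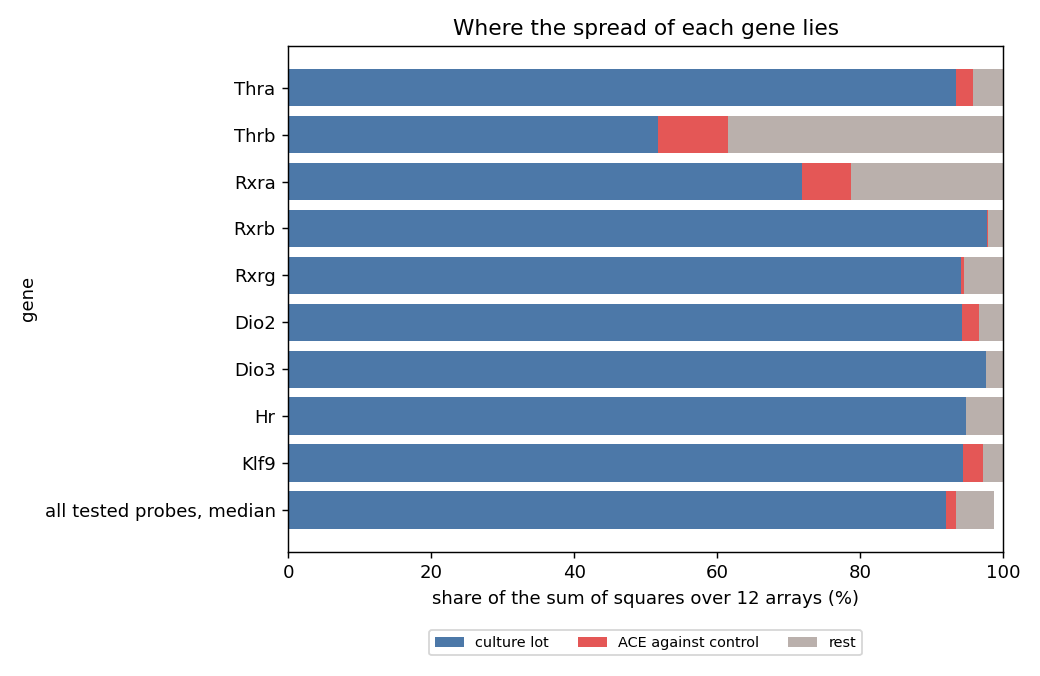
Share of the sum of squares over the 12 arrays (x axis, percent) that lies between culture lots, between ACE and control, and in the rest, for each gene and as the median of each share over all tested probes. The lot holds over 90% for 7 of the 9 genes, and the lowest share, 51.7%, belongs to Thrb.

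The SD of the 6 lot means was 1.06 for Dio2, against a median of 0.286 over all tested probes. Neither array of lots 5 and 6 was well above background for Dio2, so that its level there is not resolved and this SD is uncertain. For the other genes this SD was 0.51 (Rxrg), 0.50 (Thrb), 0.48 (Dio3), 0.44 (Hr), 0.33 (Klf9), 0.25 (Thra), 0.20 (Rxra) and 0.15 (Rxrb). The lots did not order the genes alike. Klf9, Dio2, Rxra and Rxrg had their lowest lot mean in lot 6 (10.86, 1.81, 6.14 and 8.85), the lot in which Thra, Rxrb and Hr had their highest (12.41, 10.77 and 7.15). Dio3, Hr and Rxrb were lowest in lot 3 (8.40, 6.00 and 10.36), a lot in which neither Thrb array was well above background. Hr stood between 6.00 and 6.34 in lots 1 to 3 and between 6.81 and 7.15 in lots 4 to 6, which were scanned as 1 batch, and Rxra stood between 6.51 and 6.57 in the former and between 6.14 and 6.22 in the latter. Lot, slide and scan batch cannot be told apart in these differences.

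Marker genes of the cell types in the cultures moved between the same lots. The mean log2 signal of 10 astrocyte markers was 14.17, 13.74, 13.96, 13.74, 13.18 and 12.99 in lots 1 to 6, with its lowest values in lots 5 and 6, where Klf9, Rxra, Rxrg and the poorly detected Dio2 were also lowest. The mean of 10 oligodendrocyte markers ran the other way, at 13.08, 13.00, 13.35, 13.52, 13.77 and 13.92. The meningeal fibroblast list, at 10.29, 10.71, 10.64, 10.09, 9.96 and 10.04, was also lowest in lots 5 and 6. Its r over the 12 arrays was 0.82 with Rxra, 0.65 with Rxrg, 0.73 with Dio2 and 0.51 with Klf9. For the astrocyte list these were 0.73, 0.55, 0.74 and 0.86. The part of any of these cell types in the levels of the 9 genes was not tested. Between ACE and control, the means of several of these lists turned their sign when 1 lot was left out. The astrocyte list differed by -0.042 (higher in 1 of 6 pairs), the pan-neuronal list by 0.069 (5 of 6), the oligodendrocyte list by 0.011 (3 of 6), the granule cell list by 0.0011 (2 of 6) and the Purkinje cell list by -0.020 (3 of 6). Leaving out 1 lot gave -0.048 (lot 1) to 0.044 (lot 5) for the granule cell list, 0.0049 for the Purkinje cell list (lot 6) and -0.0020 for the oligodendrocyte list (lot 6). The endothelial list differed by -0.14 (3 of 6), but by 0.0010 without lot 5. The microglial list differed by 0.055, but by -0.010 without lot 1, and the meningeal fibroblast list by 0.017, but by -0.074 without lot 4. The list means also covered genes that differed in opposite directions. At unadjusted limma p under 0.05 were 3 of 10 microglial genes, 2 higher and 1 lower (30%), and 2 of 7 tested endothelial genes, both lower (28.6%), beside 16.6% of all probes. Named after their values were seen, Aif1 differed by 0.19 (higher in 6 of 6 pairs, limma adjusted p = 0.206), Cx3cr1 by -0.35 (lower in 6 of 6, limma adjusted p = 0.147) and Cdh5, an endothelial cadherin, by -0.24 (lower in 6 of 6, limma adjusted p = 0.143). Of the 10 astrocyte, 10 oligodendrocyte and 10 microglial genes all were well above background on every array. So were 8 of the 9 pan-neuronal genes with a probe on the array, 9 of 10 granule cell and 9 of 10 Purkinje cell genes. The cultures thus held RNA of neurons and of glia. Of 18 skeletal muscle genes, 14 passed the filter on low signal and 11 were well above background on every array, at a mean over the 14 of 7.79 to 11.64 in control and 7.68 to 10.50 in ACE arrays, and the ACE array was lower in 5 of 6 pairs. Their mean difference was -1.02, of which lot 2 (-3.44) and lot 6 (-1.58) gave the most, and it was -0.53 without lot 2. Lots 1 and 2 held the highest muscle signal.

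**Figure D4:**
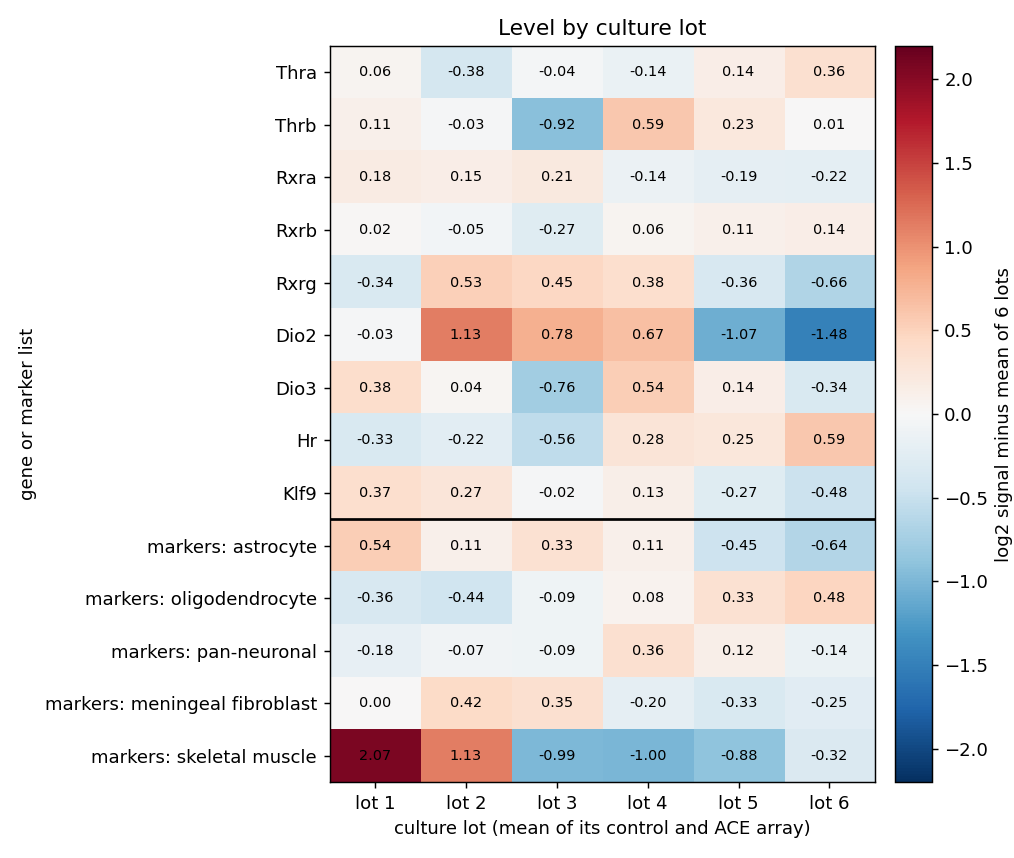
Log2 signal of each gene and of 5 marker lists in each culture lot, as the mean of the control and the ACE array minus the mean over the 6 lots (number and colour). Dio2 is lowest in lots 5 and 6, where its signal was not well above background, Klf9 ranges from 0.37 in lot 1 to -0.48 in lot 6, and the astrocyte markers from 0.54 in lot 1 to -0.64 in lot 6.

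The genes whose signal followed the regulators and deiodinases most closely over the 12 arrays were found among 12236 named genes detected on every array. The 12 arrays share 6 lots and the normalisation, so these correlations describe the lots and carry no test. For Klf9 they were Atp1b1 (r = 0.99), a sodium pump subunit, and Upp1 (0.98), a uridine phosphorylase. For Hr they were Kctd13, Tmem132e and Dct (r = 0.96 each). For Dio2, which was not well above background on 5 of 12 arrays, so that its order of likeness is not resolved, they were Stac2, Inha and Caskin1 (0.95 each). For Dio3 they were Slc1a6 (0.95), the Purkinje cell glutamate transporter, and Serhl2 (0.93).

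The other genes of the pathway were taken in lists, each gene by its brightest probe. None of their probes passed the adjusted limma threshold, so the counts below are at unadjusted p under 0.05 and are read against the 16.6% of all probes. Over all lists, 10 of 70 genes were under that threshold with the replicate block. The 70 include Nr1d1 and 6 glucocorticoid responsive genes, which are not of the pathway, and the 10 include Fkbp5 and Per1 of the latter. Without the block it was 1 of 70, beside 81 of all 23796 probes in that fit. Medians are over genes, with probes of a gene averaged, beside a median of -0.0050 over all tested probes.

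Among 10 genes of hormone transport and binding, 0 were higher, 1 was lower and 9 did not pass (10%), with a median log2 difference of 0.019. The gene that passed was Dio1, a deiodinase best known from liver, kidney and thyroid and no transporter or binding protein, so that 0 of the 9 genes of transport and binding proper passed. Its control arrays gave 4.93, 4.52, 4.49, 4.50, 4.10 and 4.61 for lots 1 to 6, and its ACE arrays gave 4.34, 4.16, 3.67, 3.78, 3.83 and 4.41. ACE was lower in all 6 lots although the groups overlapped, with a difference of -0.49 ± 0.093 (SE, 95% interval -0.72 to -0.27, limma adjusted p = 0.143, exact signed-rank p = 0.03125). The probe was well above background on 7 of 12 arrays, so that the size of this difference rests on dim signals. Crym, a cytosolic hormone-binding protein, differed by 0.12 ± 0.065 (limma adjusted p = 0.398), Slc7a5, the light chain of an amino acid transporter that also carries the hormones, by 0.070 ± 0.043 (adjusted p = 0.448), and Slco1a4, an organic anion transporter listed on the array as Slco1a2, by -0.17 ± 0.12 (adjusted p = 0.494). Ttr, the thyroxine carrier of choroid plexus, was chosen after its values were seen and had the largest mean difference of the list, -1.57, with a standard error of 1.11 and a higher ACE value in 2 of 6 pairs.

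Of 8 genes that act in the synthesis or turnover of the deiodinases, 0 were higher and 1 was lower (12.5%), with a median of -0.017. Usp20, a deubiquitinase of Dio2, was lower in 6 of 6 pairs by 0.11 (log2 difference -0.11 ± 0.043, limma adjusted p = 0.267). Ube2j2, a ubiquitin-conjugating enzyme, differed by -0.046 ± 0.026 (adjusted p = 0.412), March6, a ubiquitin ligase of Dio2, by 0.044 ± 0.028 (adjusted p = 0.456; second probe -0.017) and Wsb1, the substrate adaptor of another Dio2 ligase, by -0.017 ± 0.029 (adjusted p = 0.787).

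Of 14 corepressor and coactivator genes, 2 were higher and 0 lower (14.3%), with a median of 0.023. These were Tbl1x, a subunit of the NCoR and SMRT corepressor complex, with 0.12 ± 0.037 (limma adjusted p = 0.216), and Med1, the Mediator subunit that binds nuclear receptors, with 0.11 ± 0.045 (adjusted p = 0.284), each higher in 5 of 6 pairs. A second, dimmer Tbl1x probe gave -0.054 (adjusted p = 0.787), so the 2 probes of this gene disagreed. Tbl1xr1, the paralog of Tbl1x, differed by 0.10 ± 0.063 (adjusted p = 0.451) and the coactivator Ncoa1 by 0.047 ± 0.026 (adjusted p = 0.409).

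Of 11 other receptors that pair with retinoid X receptors 0 were higher and 1 was lower (9.09%), with a median of 0.017, and Rarb was below the filter on low signal. Nr1h2, the oxysterol receptor LXRβ, was lower in 5 of 6 pairs (-0.082 ± 0.033, limma adjusted p = 0.286). Rarg, a retinoic acid receptor, differed by 0.11 ± 0.051 (adjusted p = 0.352), Nr4a2 by 0.050 ± 0.042 (adjusted p = 0.569) and Pparg by 0.047 ± 0.043 (adjusted p = 0.604). Second probes of Rarg and Nr4a2 gave 0.025 and 0.020. Ppard, named after its values were seen, had a dimmer probe at -0.18 (adjusted p = 0.166) and a brighter one at 0.049 (adjusted p = 0.694).

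Of 20 genes known to respond to thyroid hormone in brain, 2 were higher and 1 lower at that threshold (15%). The median was 0.027, with 13 genes above 0 and 7 below, and Bdnf was below the filter on low signal. Dab1, the adaptor of reelin signalling, was higher in 6 of 6 pairs (0.099 ± 0.027, limma adjusted p = 0.186), and Fasn, the fatty acid synthase, in 5 of 6 (0.12 ± 0.042, adjusted p = 0.255). Cnp, a myelin enzyme, was lower in 6 of 6 pairs (-0.13 ± 0.048, adjusted p = 0.257). Mag, another myelin gene, differed the other way by 0.10 ± 0.047 (adjusted p = 0.347), and a second probe of it gave 0.18 (adjusted p = 0.257). By the brightest probe of each gene, the share that passed, 15%, was near the 16.6% of all probes. Of the 27 tested probes 4 were higher and 1 lower at that threshold, with second probes of Mag and Mbp among the higher. Mbp, named after its values were seen, had a dimmer probe at 0.13 (higher in 6 of 6 pairs, limma adjusted p = 0.189). Its brighter probe gave 0.029 (adjusted p = 0.836).

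Of 6 glucocorticoid responsive genes, listed because Klf9 also responds to glucocorticoids, 1 was higher and 1 lower (33.3%, from 2 genes), with a median of -0.0026. Fkbp5, a chaperone of the glucocorticoid receptor, was higher in 6 of 6 pairs (0.13 ± 0.027, limma adjusted p = 0.145), and Per1, a clock gene, was lower in 6 of 6 pairs (-0.21 ± 0.067, adjusted p = 0.214). Tsc22d3 differed by -0.039 ± 0.040 (adjusted p = 0.648), and Nr3c1, the receptor itself, by 0.034 ± 0.037 (adjusted p = 0.665), with a second probe at -0.034.

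**Figure D5:**
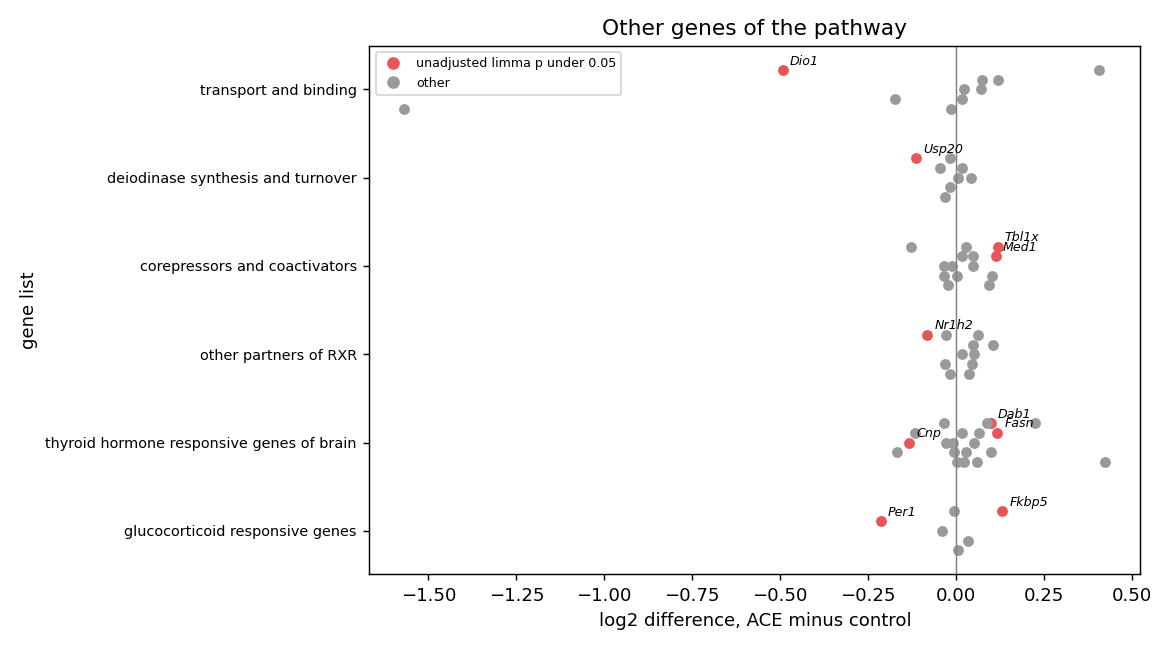
Log2 difference of ACE minus control (x axis) for the brightest probe of each tested gene in 6 lists (y axis). The glucocorticoid responsive list lies outside the pathway. Red points have an unadjusted limma p under 0.05 and are named, grey points do not, and no probe passed the adjusted threshold, the lowest adjusted p of all tested probes being 0.141.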

How the data were processed

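Cy3 intensities of 1-colour Agilent 4x44k rat arrays were extracted by the authors with Feature Extraction (replicate 1 with version 11.0.1.1, all others with 11.5.1.1). These deposited intensities were background-subtracted and detrended, not scaled between arrays. The authors also deposited a log2 table, quantile normalised and centred per probe, which was used as an alternative. Its direction and scale were checked (r of 0.997 to 0.999 with the centred values computed here). Here, control spots and outlier-marked spots were left out, and log2 intensities were quantile normalised over the 12 arrays. Spots of a probe were averaged. Probes above the 20th percentile of their array on at least 7 of 12 arrays, with at least 4 complete pairs, were tested with limma 3.58.1 in R 4.3.3 (lmFit and eBayes), with replicate number as a block. Exact signed-rank and sign-flip tests used the 6 pairs. The 75th percentile of intensity was 1803 to 4384, 75.4 to 91.0% of spots were well above background and 0 were saturated. The number of arrays limits the precision.

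Replicate numbers pair arrays of the same culture lot, per the study's methods. Deviations from the group means correlated at 0.449 to 0.912 within a number and at -0.439 to 0.390 between numbers. Each slide held 1 pair, control at place 1 and ACE at place 3, so place and exposure cannot be told apart. The 6 slides were scanned in 4 batches.

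The 9 genes and the lists were chosen with earlier results of these data known. Besides the 9 genes, the text names the 4 genes of lowest unadjusted p per list over the brightest probe of each gene, and the 3 genes most correlated with Hr, Klf9, Dio2 and Dio3, except a few that are not reported here. Probes were matched to RefSeq by accession for 9 of 9 genes. Nicotine and imidacloprid cultures were not analysed here. Alternatives were normexp correction (offset 50), scaling by the 75th percentile, the deposited values, other filters, other treatments of the block, the largest scan batch and leaving out each replicate. The marker list differences with a pair left out were added after seeing the data. Plots used Python 3.11.15 and matplotlib 3.10.9.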

Additional observations from a re-analysis of the deposited data

Results flagged for a closer look

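Of 86 groups of 6 values examined, 3 held an array set apart from the rest of its group, where chance gives about 5%. The mean of the skeletal muscle markers on the ACE array of replicate 1 was 10.50, against 8.20 on the next and 7.68 on the farthest ACE array, and the control array of the same lot was at 11.23. Med1 was at 8.71 on the ACE array of replicate 1, against 9.05 on the next and 9.17 on the farthest, and the control array of the same lot was at 8.69. Crym was at 13.42 on the ACE array of replicate 3, against 14.54 on the next and 14.83 on the farthest, and the control array of the same lot was at 13.48. None of the 9 thyroid hormone signalling genes had such an array in either group.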

How the results depend on the processing

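The filters and the treatments of the block cannot move the difference itself (34 values). Of the 90 values of the 9 genes that could move, 79 kept their direction and their side of the adjusted threshold and 11 changed sign, all of Hr, Dio3 or Rxrg. Dio3 became 0.0014 with normexp correction, 0.018 with the deposited values and 0.070 in the largest scan batch, and Hr became -0.073 with scaling by the 75th percentile and -0.065 in that batch. Genes of the 9 at an unadjusted limma p under 0.05 numbered 1 with normexp (Dio2, also 1 by the signed-rank test) and 1 with the deposited values (Klf9). They numbered 2 in the scan batch (Thra, Rxrg) and 0 to 2 on leaving out a replicate (Dio2 without replicate 2, Thra and Klf9 without 3, Klf9 without 6). Of all probes, 4301 of 23796 were under that limma threshold with normexp, 3986 of 23796 with the deposited values and 3299 of 23610 in the scan batch. With scaling by the 75th percentile the medians of the other RXR partners, of transport and binding and of the corepressors and coactivators turned to -0.034, -0.014 and -0.019, and the glucocorticoid median was -0.049, but 0.0093 with the deposited values. On leaving out a replicate, the list medians ran from -0.0023 to 0.031 (transport), -0.030 to 0.0057 (deiodinase turnover), -0.0029 to 0.038 (corepressors), -0.0053 to 0.036 (RXR partners), 0.027 to 0.042 (hormone-responsive genes) and -0.031 to 0.0061 (glucocorticoid). For the lists the alternatives were normexp, the 75th percentile, the deposited values and leaving out a replicate. Under these only the hormone-responsive list of the 6 kept its sign. Its median of 0.027 was smaller than the SD of its medians over the pairs, 0.035. The scan batch, the filters and the block were not run for the lists. Under that scaling 19.1% of the probes at unadjusted p under 0.05 were higher in ACE, against 41.5% with quantile normalisation and 51.5% with the deposited values. Thrb was -0.077 with normexp, and Rxrb -0.048 with normexp and -0.00065 with the deposited values.

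Leaving out each replicate in turn gave -0.11 to -0.053 for Thra, -0.59 to -0.12 for Thrb, -0.026 to 0.087 for Hr, 0.072 to 0.13 for Klf9, 0.16 to 0.40 for Dio2, -0.033 to 0.041 for Dio3, 0.050 to 0.17 for Rxra, -0.027 to -0.0021 for Rxrb and -0.0026 to 0.12 for Rxrg. All probes at unadjusted p under 0.05 numbered 2811 to 4161 in these fits, and 0 passed the adjusted threshold. Without the replicate block 81 probes had an unadjusted p under 0.05, and with a random replicate block 5 passed the adjusted threshold, none of them a probe of the 9 genes. Without the block, 1 of 70 list genes had an unadjusted p under 0.05, against 10 with it, and on leaving out a replicate 5 (without replicate 2) to 13. No gene of the 9 passed the adjusted threshold with or without the block. The cause of these changes was not tested. The signed-rank test was not run with a pair left out or in the 3-pair batch, where it cannot reach 0.05. Thrb and Dio2 are limited by signal near background.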
